A study of Mus musculus with 2 samples.

Results

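The genes described here are 9 transcription factor genes of T cells and natural killer (NK) cells: Tcf7, Lef1, Bcl11b, Gata3, Foxp3, Tbx21, Eomes, Tox and Runx3. They were taken by symbol, and all 9 were found among the 43346 genes with an Ensembl identifier in the deposited gene tables. The tables describe polyadenylated RNA of spleen tissue taken from 1 male mouse of the inbred strain C57BL/6J at 10 weeks of age. It was read in 2 libraries that the labels call technical replicate 1 and technical replicate 2, both of biological replicate 1, with no treatment and no other tissue. Per the labels, technical replicate 2 was made in 2015 and did not belong to the publication of 2014, and for each library the labels give sizes from 350 to 450 without a unit. Whether both came from the same RNA extract is not given in the sources used here. A single mouse gives no spread between animals, and a comparison of 1 library against 1 gives none between replicates, so no p-value is given and every difference is between these 2 libraries.

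The expected counts on genes summed to 27528810 in replicate 1 and 3806385 in replicate 2, a depth ratio of 7.23. At 1 TPM or more (TPM is a level per transcript length that sums to 1000000 in each library), 13937 genes were present in replicate 1 and 9390 in replicate 2. The libraries stood apart over most genes. Of 12467 genes tested, 28.0% were called higher and 32.6% lower in replicate 2. A call means that the whole 95% counting interval of the ratio lay beyond 1.5-fold after library sizes had been scaled by the trimmed mean of M values (TMM).

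T cells are set apart from other lymphocytes by a small group of nuclear factors that first install the T cell programme in the thymus and then hold or divert it in the periphery. Tcf7 (TCF1) and Lef1 are related high mobility group proteins that bind beta-catenin and Groucho/TLE co-repressors, and Bcl11b is a zinc finger protein that seals T cell commitment. Gata3, Tbx21 (T-bet) and Foxp3 direct the type 2 helper, type 1 helper and regulatory T cell fates, while Tbx21, its T-box relative Eomes, Runx3 and the high mobility group protein Tox act in cytotoxic T cells and NK cells. In the spleen these cells lie mainly in the white pulp around the arterioles and, for many NK cells, in the red pulp.

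All 9 genes were present in replicate 1, at levels from 3.20 to 121.59 TPM. In replicate 2 the level of 8 of them was lower, 7 of the 9 reached 1 TPM, and the range was 0.35 to 11.66 TPM. Most genes were lower on this measure, with 77.3% of all tested genes called lower as TPM ratios and 7.08% higher. The median log2 TPM ratio was -1.86 for the 9 genes and -2.70 for all tested genes. Over the 9 genes the counts were 11107 and 619, and the summed levels were 216.77 and 34.04 TPM. Gata3 alone had a higher TPM in replicate 2. With 1 library a side, fewer cells of a type, less RNA per cell and effects of the libraries themselves cannot be told apart.

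**Figure D1:**
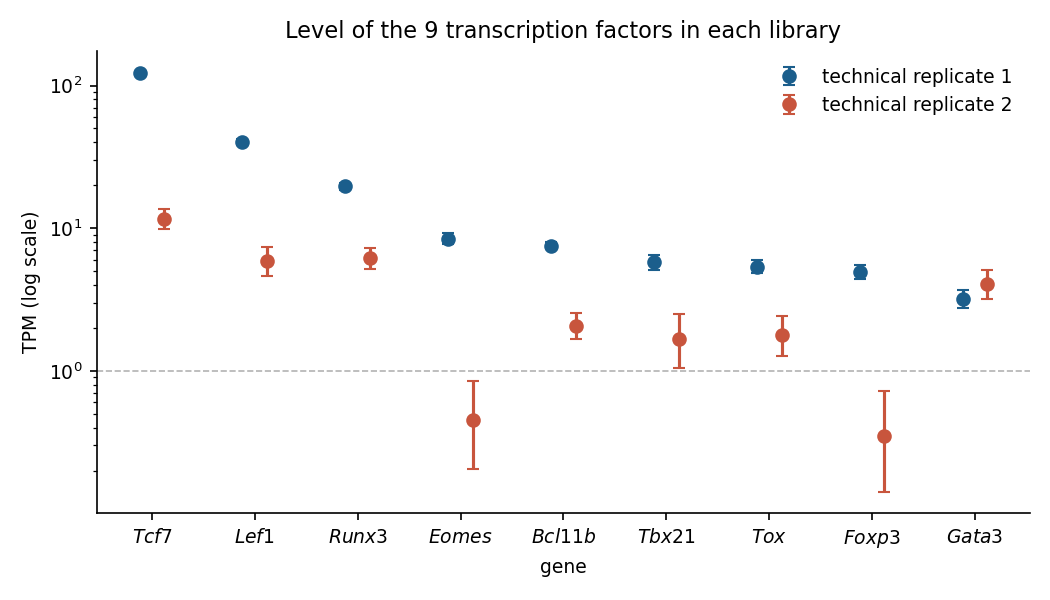
Level of each transcription factor gene in TPM (log axis) in technical replicates 1 (blue) and 2 (red), with genes ordered by their level in replicate 1. Bars are exact Poisson 95% intervals of the count on the TPM scale, the dashed line marks 1 TPM, and 8 of the 9 genes lie lower in replicate 2, Eomes and Foxp3 below 1 TPM. Of all tested genes 77.3% were called lower as TPM ratios.

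Tcf7 (ENSMUSG00000000782.11, chr11:52252371-52283014 on the minus strand of GRCm38) encodes TCF1, which is needed for T lineage entry and marks naive and memory T cells. It was the most abundant of the 9 genes in both libraries. Its count was 5294 in replicate 1 and 160 in replicate 2, and its level was 121.59 and 11.66 TPM. At its share of replicate 1, a count of 732 would have been reached in replicate 2. Under TMM the log2 ratio of replicate 2 over 1 was -0.93, with a 95% counting interval from -1.17 to -0.70, which was a call of lower. The call was not made under DESeq2 size factors, where the log2 ratio was -0.81.

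Lef1 (chr3:131110471-131224356, plus strand) encodes the closest relative of TCF1 in T cells and acts beside it in early thymocytes and naive T cells. Its count was 1702 in replicate 1 and 74 in replicate 2, against 235.3 at its share of replicate 1. Its level was 40.29 TPM and 5.85 TPM. The log2 ratio was -0.41 under TMM (-0.76 to -0.07) and was not called. Among the factors, Tcf7 stood at 3.11 counts per count of Lef1 in replicate 1 and at 2.16 in replicate 2. This ratio of ratios, which no library scaling can move, was 0.70 with an exact 95% interval from 0.52 to 0.93. With the trend over GC content removed, Tcf7 was lower against Lef1 by 2.45 times.

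Most of the Lef1 signal was assigned to a transcript that starts inside the gene. Lef1-203, a coding transcript that begins 2326 bases after the upstream start, held 89.67% of the gene's TPM in replicate 1 (1457.03 counts, posterior SD 18.16) and 95.48% in replicate 2 (71.0 counts, posterior SD 4.94). The 3 transcripts from the upstream start held 206.82 counts in replicate 1, which is 12.15% of the gene's count, and 0 in replicate 2. At the same share 9.0 counts would have been reached in replicate 2, where a count of 0 allows up to 4.05% if it is read as an observed count. It is an estimate, and the posterior SDs of the 3 transcripts in replicate 2 were 2.67, 2.60 and 3.03 counts. Lef1-201 and Lef1-203 share all 11 exons after the first, so their split rests on the first exon, which has 1208 bases in the former and 24 in the latter. The coding part of the first exon of Lef1-201 and the whole first exon of Lef1-203 are shown because the transcripts differ in their first exons and their coding sequences begin there (GENCODE M21 positions on GRCm38, plus strand, start codons in capitals). The amino terminus of the full-length protein, which this exon begins, is known as the part that binds beta-catenin.
Lef1-201, chr3:131111472-131111678: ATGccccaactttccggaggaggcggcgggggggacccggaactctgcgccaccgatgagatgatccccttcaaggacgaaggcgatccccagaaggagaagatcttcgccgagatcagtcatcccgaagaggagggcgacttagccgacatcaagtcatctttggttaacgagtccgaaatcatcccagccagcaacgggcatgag
Lef1-203, chr3:131112797-131112820: accttctctgtcccgATGgcaggg

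The upstream coding stretch has 207 coding bases, and the internal first exon adds 9 coding bases. In replicate 1 the posterior SD of Lef1-201 was 35.28 counts on an estimate of 147.34, and those of Lef1-202 and Lef1-204, which share its start, were 21.53 and 21.1 counts. The 250 bases before the internal start, from RefSeq on GRCm38.p6, are shown because this start led in both libraries. They have a GC content of 50.8% and 6 CpG dinucleotides, against medians of 52.4% and 6.0 over 32851 promoters of the same length, and none of the motifs searched. Each motif was searched on both strands and counted apart from the others. The TCF and LEF motif was CTTTGA, which 13.8% of those promoters hold. For RUNX proteins it was TGTGGT, held by 14.0%, and for T-box proteins GTGTGA, held by 12.3%. The GATA protein motif was AGATAA, held by 10.0%, and for the TATA box it was TATAAA, held by 12.4%.
Lef1 internal start, chr3:131112541-131112790 (plus strand): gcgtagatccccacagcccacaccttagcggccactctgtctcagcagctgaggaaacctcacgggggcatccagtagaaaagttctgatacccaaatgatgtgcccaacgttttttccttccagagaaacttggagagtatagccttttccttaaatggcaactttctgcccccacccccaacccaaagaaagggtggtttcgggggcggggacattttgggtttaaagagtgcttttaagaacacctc

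Bcl11b (chr12:107910403-108003602, minus strand) was read with 1128 counts in replicate 1 and 97 in replicate 2, where 156.0 would match its share of replicate 1. Its level was 7.54 TPM and 2.07 TPM. Per count of Tcf7, the gene had 0.213 counts in replicate 1 and 0.606 in replicate 2, a change of 2.84 times (exact 95% interval 2.17 to 3.72). The change came to 3.66 times with the GC trend removed and 7.21 with the GC and length trends removed. With GC content as the plain mean over transcripts it was hardly seen, with log2 ratios of -1.54 for Bcl11b and -1.65 for Tcf7. The log2 ratio of Bcl11b was 0.58 under TMM (0.26 to 0.88), -0.69 under total counts and -1.86 for the TPM ratio, with no call under TMM. The direction for Bcl11b therefore depended on the scaling. The transcript Bcl11b-201 held 97.98% of its TPM in replicate 1 and all of it in replicate 2.

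Gata3 (chr2:9857078-9890034, minus strand), the factor of type 2 helper T cells that is also needed for T cell development and for innate lymphoid cells, differed from the other 8 genes in that its TPM was higher in replicate 2. It had 185 counts in replicate 1 and 73 in replicate 2, where 25.6 would match its share of replicate 1. Its log2 ratio was 2.78 under TMM (2.36 to 3.17), 1.51 under total counts and 0.34 for the TPM ratio. It was called higher with each of TMM, DESeq2 size factors and total counts, with the TPM ratio on the same side. The TPM values were 3.20 and 4.04, and their counting intervals of 2.76 to 3.70 and 3.17 to 5.08 overlapped. Gata3 was the lowest of the 9 genes in replicate 1 and the fourth highest in replicate 2.

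Against other factors, whose counts share each library's scaling, Gata3 stood at 0.0349 counts per count of Tcf7 in replicate 1 and 0.456 in replicate 2, a change of 13.0 times (exact 95% interval 9.39 to 18.0). Per count of Tbx21, the factor of the opposing type 1 fate, it stood at 0.728 and 3.17, a change of 4.35 times (2.58 to 7.56). This change came to 36.9 times with the GC trend removed. With GC content as the plain mean over transcripts the gap was smaller than that, with log2 ratios of 1.81 for Gata3 and -1.56 for Tbx21. These pairs were chosen after the values were seen. All Gata3 counts were assigned to Gata3-201 in both libraries, although 6 transcripts are annotated. The interval of TPM that the authors deposited, from 3.25 to 6.99 in replicate 1 and from 4.09 to 11.2 in replicate 2, left out the deposited TPM itself in both libraries. The same held for Tcf7 in replicate 1, at 121.59 TPM beside an interval from 112.9 to 119.2. The RefSeq promoter of Gata3 is shown because this was the gene with a higher TPM in replicate 2. Its 250 bases have a GC content of 70.0% and 19 CpG dinucleotides, and none of the 5 motifs searched.
Gata3, chr2:9878601-9878850 (minus strand): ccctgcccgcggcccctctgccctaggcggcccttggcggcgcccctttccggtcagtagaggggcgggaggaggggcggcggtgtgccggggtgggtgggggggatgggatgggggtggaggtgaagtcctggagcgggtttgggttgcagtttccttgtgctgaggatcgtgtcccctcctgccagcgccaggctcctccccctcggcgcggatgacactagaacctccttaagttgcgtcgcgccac

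Foxp3 (chrX:7573644-7595245, plus strand), the defining factor of regulatory T cells, had 329 counts in replicate 1 and 7 in replicate 2, where 45.5 would match its share of replicate 1. Its level was 4.92 TPM and 0.35 TPM. Its log2 ratio was -1.44 under TMM, with an interval from -2.76 to -0.38 that reached inside 1.5-fold, so it was not called. It was called lower under total counts, at -2.70. Per count of Tcf7, Foxp3 had 0.0621 counts in replicate 1 and 0.0437 in replicate 2, a ratio of 0.70 whose interval from 0.276 to 1.502 included 1. A fall of Foxp3 beyond that of Tcf7 was not detectable at this depth in the counts, and with the GC trend removed the gap between the genes was 2.82 times. With GC content as the plain mean over transcripts, the log2 ratios were -2.25 for Foxp3 and -1.65 for Tcf7.

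The leading transcript of Foxp3 differed between the libraries. Foxp3-203 led in replicate 1 with 67.16% of the gene's TPM, and Foxp3-201 held all of it in replicate 2. Foxp3-203 starts 6604 bases upstream of Foxp3-201, and both use the same start codon. Their counts in replicate 1 were 224.44 and 104.56, with posterior SDs of 49.39 and 52.66, and in replicate 2 all 7 counts went to Foxp3-201 with a posterior SD of 1.91. At the share of replicate 1, 4.8 of the 7 counts would belong to the upstream starts, and a count of 0 of 7 allows up to 42.86%, with posterior SDs of 1.5 to 1.7 counts for these transcripts. The last bases of Foxp3 overlap Ccdc22, a gene of the opposite strand, over 1437 bases, and Ccdc22 had 354 counts in replicate 1 and 264 in replicate 2. Whether the counting used the strand is not given in the sources used here. Of the other genes that overlap Foxp3, Gm36995 had 233 and 0 counts and the antisense-annotated gene Flicr 25 and 0. Ppp1r3f had 23 and 15 counts, and it overlaps only a part of the annotated gene that lies before the start of Foxp3-203.

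Tbx21 (chr11:97098071-97115331, minus strand) drives type 1 helper T cells and acts in NK cell maturation. It had 254 counts in replicate 1 and 23 in replicate 2, against 35.1 at its share of replicate 1. Its level was 5.78 TPM and 1.66 TPM. The log2 ratio was 0.65 under TMM (-0.03 to 1.27), -0.61 under total counts and -1.80 for the TPM ratio, and it was not called under TMM. The single annotated transcript held every count.

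Eomes (chr9:118478212-118486132, plus strand), the T-box factor of NK cells and memory CD8 T cells, was read with 501 counts in replicate 1 and 9 in replicate 2, where 69.3 would match its share of replicate 1. Its level was 8.42 TPM and 0.45 TPM, the widest gap of the 9 genes at 18.7 times. Its log2 ratio was -1.68 under TMM (-2.82 to -0.75) and -2.94 under total counts. Eomes was called lower under every scaling used. It could pass the filter for testing, a mean of at least 1 TPM, only through replicate 1. Its TPM could therefore only be lower in replicate 2, which does not fix the ratio under TMM. Eomes stood at 1.97 counts per count of Tbx21 in replicate 1 and at 0.391 in replicate 2, a difference of 5.03 times (exact 95% interval 2.20 to 12.5). It came to 1.56 times with the GC trend removed and to 1.17 times with the GC and length trends removed. With GC content as the plain mean over transcripts, the log2 ratios were -2.96 for Eomes and -1.56 for Tbx21. How much of the gap between the 2 T-box genes was kept thus depended on the measure of GC content. The leading transcript Eomes-201 held 81.43% in replicate 1, where Eomes-202 and Eomes-203 held 7.88% and 10.69%, and all 9 counts in replicate 2.

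Runx3 (chr4:135120652-135177990, plus strand) silences Cd4 and supports Cd8 expression in cytotoxic T cells. It had 1332 counts in replicate 1 and 136 in replicate 2, against 184.2 at its share of replicate 1. Its level was 19.65 TPM and 6.18 TPM. The log2 ratio was 0.82 under TMM, with an interval from 0.56 to 1.08 whose lower end lay just inside 1.5-fold, and it was called higher under DESeq2 size factors at 0.95. Under total counts it was -0.44, so that this gene, too, changed direction with the scaling.

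The Runx genes are known to have a distal and a proximal start, and T cells are known for use of the distal one. The distal transcript Runx3-201 held 95.7% of the TPM in replicate 1 (1328.99 counts) and all of it in replicate 2. The 5 other transcripts, grouped here as proximal, begin at different positions, from 31844 to 33784 bases after the distal start. They held 3.01 counts in replicate 1 and 0 in replicate 2, where 0.3 would be reached at the same share. These counts went to Runx3-203 (2.0) and the retained intron transcript Runx3-206 (1.01). None went to the proximal coding transcript Runx3-202, so they do not show use of its start. The starts of Runx3-201 and Runx3-202 lie 31844 bases apart. Their first exons differ in GC content, with 45.3% for the distal and 78.1% for the proximal one. The first coding bases of each are shown because they mark which start was read (start codons in capitals), with the promoter bases before each start (RUNX motif matches, read on the reverse strand, in capitals).
Runx3-201 coding part of the first exon, chr4:135121106-135121163: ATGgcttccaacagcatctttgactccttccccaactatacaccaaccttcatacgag
Runx3-202 coding bases of the first exon that Runx3-201 lacks, chr4:135152772-135152787: ATGcgtattcccgtag
Runx3 distal promoter, chr4:135120395-135120644: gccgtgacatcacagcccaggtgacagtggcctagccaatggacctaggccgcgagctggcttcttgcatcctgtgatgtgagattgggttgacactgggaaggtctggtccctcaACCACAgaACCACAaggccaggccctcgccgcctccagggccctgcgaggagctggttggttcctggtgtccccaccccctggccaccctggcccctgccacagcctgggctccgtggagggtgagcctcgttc
Runx3 proximal promoter, chr4:135152295-135152495: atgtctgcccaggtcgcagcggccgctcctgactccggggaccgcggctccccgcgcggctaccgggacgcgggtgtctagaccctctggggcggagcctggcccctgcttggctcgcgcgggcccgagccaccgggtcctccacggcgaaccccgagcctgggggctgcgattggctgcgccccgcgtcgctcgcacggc

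The distal promoter holds 2 RUNX motif matches and none of the other motifs, with a GC content of 65.2% and 8 CpG dinucleotides. The 250 bases before the proximal RefSeq start, of which the 201 outside annotated coding transcripts are shown, hold none of the motifs, with a GC content of 78.8% and 38 CpG dinucleotides. A match is a description of the letters and says nothing of binding. Promoter rows were found for 8 of the 9 genes, without Tox.

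Tox (chr4:6686353-6991557, minus strand), known from thymic CD4 T cell development and from exhausted CD8 T cells, had 382 counts in replicate 1 and 40 in replicate 2, against 52.8 at its share of replicate 1. Its level was 5.38 TPM and 1.78 TPM. The log2 ratio was 0.86 under TMM (0.35 to 1.33), -0.40 under total counts and -1.60 for the TPM ratio, with no call under TMM. Tox-201 held 98.12% of its TPM in replicate 1 and all of it in replicate 2.

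The order of the genes by level, in TPM, was Tcf7, Lef1, Runx3, Eomes, Bcl11b, Tbx21, Tox, Foxp3 and Gata3 in replicate 1. Neighbours whose counting intervals overlapped were Eomes with Bcl11b, Tbx21 with Tox, and Tox with Foxp3. In replicate 2 the order was Tcf7, Runx3, Lef1, Gata3, Bcl11b, Tox, Tbx21, Eomes and Foxp3. There the overlapping neighbours were Runx3 with Lef1, Lef1 with Gata3, Bcl11b with Tox, Tox with Tbx21, and Eomes with Foxp3. Tcf7 led in both libraries, but its part of the summed count of the 9 genes was 47.7% in replicate 1 and 25.8% in replicate 2. The part of Gata3 was 1.67% and 11.8%, and that of Runx3 was 12.0% and 22.0%.

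All 9 genes passed the filter for testing, a mean of at least 1 TPM and at least 50 counts over both libraries. Foxp3 and Eomes reached the mean through replicate 1 alone, so that they could pass it only with a lower level in replicate 2. Under TMM, 1 of the 9 was called higher (Gata3) and 2 lower (Tcf7 and Eomes), against 28.0% and 32.6% of all tested genes. With 9 genes these counts are not set apart from those shares, and they changed with the scaling. Called in 1 direction under TMM, DESeq2 size factors and total counts, with the TPM ratio on the same side, were Gata3 (higher) and Eomes (lower), beside background shares of 11.8% for higher and 30.5% for lower calls over all tested genes. That criterion was set with earlier results of these data known.

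The median log2 ratio of the 9 genes was 0.58 under TMM, beside -0.27 over all tested genes. With total counts the medians were -0.69 and -1.53, and as TPM ratios they were -1.86 and -2.70. TMM raised every log2 ratio by 1.26 against total counts. In each of these scalings 5 of the 9 genes lay above the median of all tested genes. Between TMM and total counts this number could not differ, since every gene is shifted alike. It was 4 with the GC trend or the GC and length trends removed, and 3 with GC content as the plain mean over transcripts. As raw directions, 5 genes were above 0 under TMM and 1 under total counts. Total counts called 1 gene higher and 4 lower (Tcf7, Lef1, Foxp3 and Eomes), against 14.6% and 58.5% of all tested genes. TPM ratios called 0 higher and 8 lower, against 7.08% and 77.3%, so that most genes were lower on that measure. DESeq2 size factors called 2 higher and 1 lower, against 29.5% and 30.5%.

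**Figure D2:**
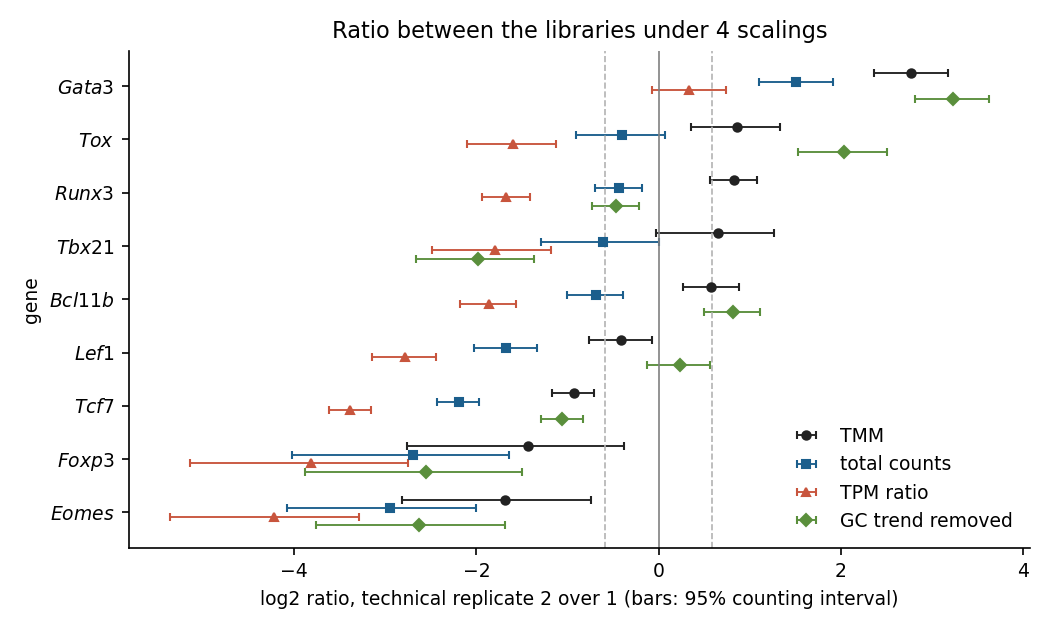
Log2 ratio of technical replicate 2 over 1 (x axis) for each of the 9 genes (y axis) under TMM, total counts, the TPM ratio and TMM with the GC trend removed, with 95% counting intervals as bars and 1.5-fold marked by dashed lines. Gata3 lies above 0 and Tcf7, Foxp3 and Eomes below 0 under all 4, while Lef1, Bcl11b, Tbx21, Tox and Runx3 change side.

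The ratio between the libraries moved with the GC content of the transcripts over the tested genes. In 20 bins of equal size its median was -1.75 in the bin of lowest GC content (median 38.9%) and 2.92 in the highest (60.01%). The 9 genes span 45.07% (Tox) to 59.32% (Tbx21). Tested genes within 1 percentage point of GC content of Tox had a median log2 ratio of -1.15 under TMM, and those near Tbx21 had 2.61. Tox lay above 89.1% of the former and Tbx21 above 20.1% of the latter. Gata3, at 49.67% GC, lay above 96.9% of genes of like GC content, Eomes at 54.65% above 10.1% and Foxp3 at 55.05% above 11.7%. With the GC trend removed, Gata3 was at 3.23 and Tox at 2.04, both called higher. Tcf7 at -1.06, Foxp3 at -2.55, Tbx21 at -1.98 and Eomes at -2.63 were called lower. Over all tested genes 27.4% were then called higher and 24.9% lower. The other 3 genes were not called, with Lef1 at 0.23, Bcl11b at 0.81 and Runx3 at -0.47. Both T-box genes lay low for their GC content. With the GC and length trends removed 3 of the 9 were called higher and 4 lower, against 26.0% and 23.3% of tested genes, and with GC content as the plain mean over transcripts 2 and 6, against 27.9% and 25.0%. The part of GC content in these differences was not tested.

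**Figure D3:**
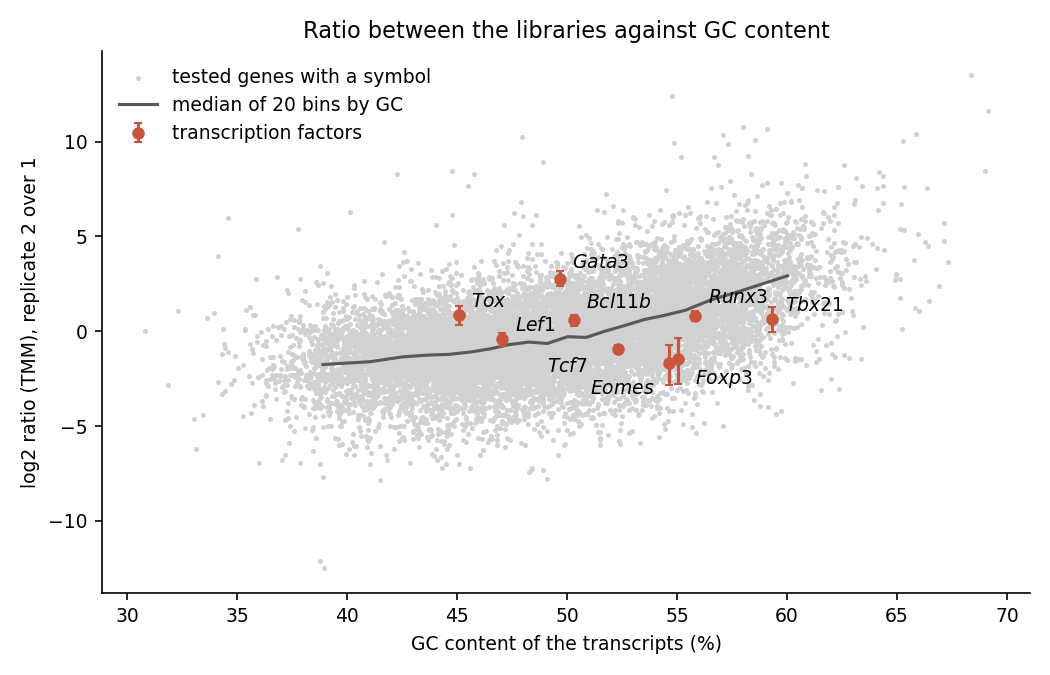
Log2 ratio of technical replicate 2 over 1 under TMM (y axis) against GC content of the transcripts in percent (x axis) for the tested genes with a symbol (grey), with the median of 20 bins as a line and the 9 transcription factor genes in red with 95% counting intervals. The line climbs with GC content, with Gata3 and Tox above it and Tbx21, Eomes and Foxp3 below it.

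The same transcript led in both libraries for 8 of the 9 genes, and Foxp3 was the exception. Of the 35 annotated transcripts, 21 had a count above 0 in replicate 1 and 10 in replicate 2, where every gene but Lef1 was assigned to 1 transcript. Tcf7-201, which held 99.28% of the TPM of Tcf7 in replicate 1, held all of it in replicate 2. The gene counts of all 9 were whole with a posterior SD of 0, as for 86.49% of tested genes, so that no reads were shared out between them and other genes. Antisense or overlapping neighbours of Tcf7 had few counts, with 16 and 8 for A630014C17Rik and 36 and 7 for Gm26551.

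**Figure D4:**
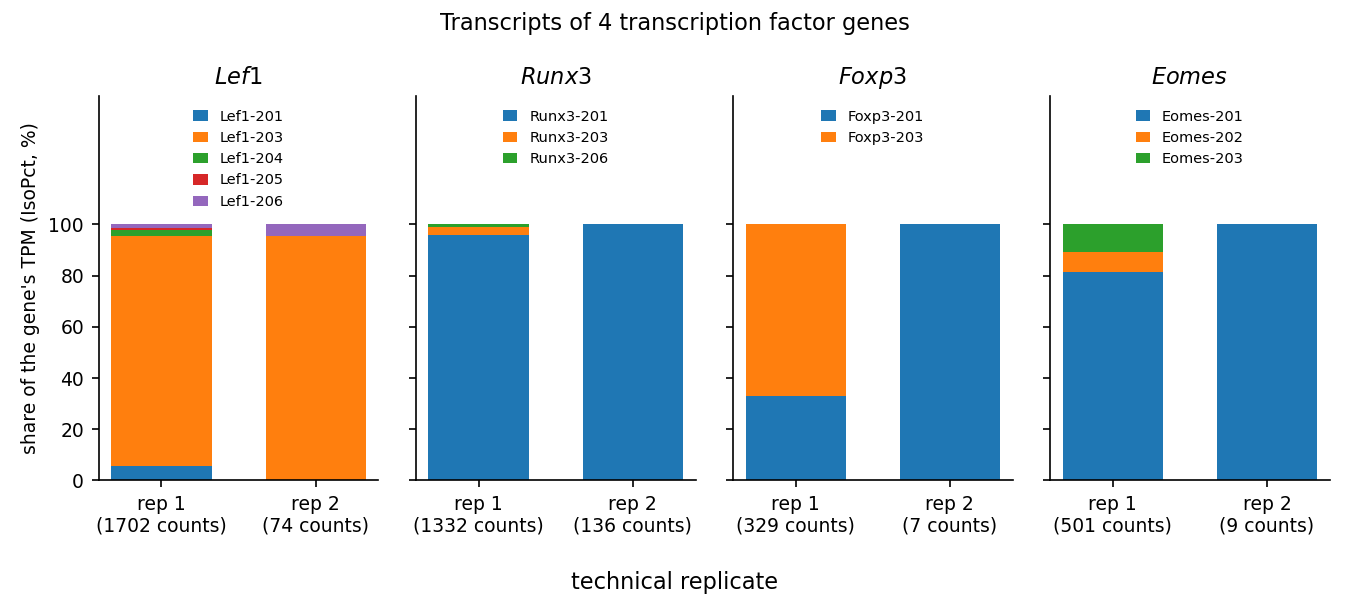
Share of each gene's TPM held by its transcripts (y axis, IsoPct in percent) in technical replicates 1 and 2 (x axis, with the gene's count) for Lef1, Runx3, Foxp3 and Eomes, each color a transcript. Lef1-203 and Runx3-201 led in both libraries, and Foxp3-203 gave way to Foxp3-201 on 7 counts.

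Most tested relatives of the 9 factors were called higher under TMM. Of 12 relatives 11 were tested, and 7 were called higher and 1 lower under TMM, against 28.0% and 32.6% of all tested genes. Under every scaling 3 were called higher and 1 lower, against 11.8% and 30.5%. Their median log2 ratio was 2.09 under TMM, 0.83 under total counts, -0.03 as a TPM ratio and 1.12 with the GC trend removed. There 6 were called higher and 0 lower, against 27.4% and 24.9% of all tested genes. Gata2, the GATA factor of stem and mast cells, had 107 counts in replicate 1 and 88 in replicate 2 and a log2 ratio of 3.83 (3.41 to 4.26). Gata1, the red cell factor, named after its values were seen, was at 3.47 (3.04 to 3.89), so the 3 tested GATA genes were all called higher. Foxp1, a forkhead factor of B cells and naive T cells, had 92.18 and 115.4 TPM and a log2 ratio of 1.67 (1.59 to 1.75). Runx1, which shares the DNA motif of Runx3, was called lower at -1.30 (-1.86 to -0.79) but not with the GC trend removed, at -0.61. Bcl11a, the B cell relative of Bcl11b, was at 0.10 (-0.08 to 0.28), not called, and at 1.12 with the GC trend removed, called higher.

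Of the partners and cofactors of the 9 factors, more were called lower than higher. All 13 were tested, with 1 called higher and 7 lower (0 and 6 under every scaling) and a median of -1.16 under TMM. With the GC trend removed the median was -1.28, with 0 called higher and 9 lower, against 27.4% and 24.9% of all tested genes. Cbfb, the subunit that Runx3 needs to bind DNA stably, had 5597 counts in replicate 1 and 25 in replicate 2, at a log2 ratio of -3.69 (-4.32 to -3.13). Runx3 itself was at 0.82, not called, and both genes were lower under total counts, at -4.95 for Cbfb and -0.44 for Runx3. Ctnnb1, which encodes beta-catenin, was at -1.31 (-1.50 to -1.13). Tle3, a Groucho co-repressor of TCF and LEF proteins, was at 1.42 (1.27 to 1.56), or 0.31 and not called with the GC trend removed, and the deacetylase gene Hdac1 at -0.38 (-0.59 to -0.17) was not called.

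Among 22 other T and NK cell transcription factors 19 were tested, with 6 called higher and 7 lower (2 and 6 under every scaling) and a median of -0.77. Under TMM these counts were near the shares of all tested genes, 28.0% and 32.6%. Under every scaling those shares were 11.8% and 30.5%. With the GC trend removed the median was -0.08, with 4 higher and 5 lower, against 27.4% and 24.9% of all tested genes. Klf2, which keeps naive T cells quiescent and recirculating and is also active in other blood and endothelial cells, had 2144 counts in replicate 1 and 5377 in replicate 2. Its level was 67.64 and 534.77 TPM, at a log2 ratio of 5.44 (5.37 to 5.52). Ets1 had 25857 and 244 counts and a log2 ratio of -2.61 (-2.80 to -2.43), and Tcf12, an E protein gene, was at -3.35 (-4.00 to -2.78). These 3 were called the same way with the GC trend removed, at 2.37, -1.85 and -2.19. Under TMM the list held ratios that were wider apart on both sides than those of the 9 genes, which ranged from -1.68 to 2.78. With the GC trend removed it did not, as the 9 genes then ranged from -2.63 to 3.23.

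Genes known as targets of the factors lay on both sides of 0. Beside each list of targets stand the shares over all tested genes, 28.0% called higher and 32.6% lower under TMM. With the GC trend removed these shares were 27.4% and 24.9%. Of 5 targets of Tcf7 and Lef1, the naive T cell chemokine receptor gene Ccr7 was called higher at 1.70 (1.54 to 1.85), while Slamf6 at -0.93 (-1.17 to -0.69) and the interleukin 7 receptor gene Il7r at -3.12 (-3.63 to -2.65) were lower. The median of these 5 was -0.93, and 0.25 with the GC trend removed. There Ccr7 at 0.97 and Il7r at -1.49 were called as before and Slamf6 at 0.25 was not.

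None of the 5 listed targets of Gata3 reached the filter, so the higher ratio of Gata3 cannot be set beside them. Named outside the naming rule, Il5 and Il13 had 0 counts in both libraries, which allows up to 3 counts each, Il4 had 15 and 0, Ccr4 78 and 0, and Il1rl1 120 and 5. Of the innate lymphoid cell markers, 0 of 6 were tested, with summed levels of 2.85 and 0.60 TPM and 0 counts in replicate 2 for Il17a, Areg, Il23r and Il22.

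Of 7 targets of Foxp3, 5 were tested, with 2 higher and 1 lower and a median of -0.13 (1 and 0 with the GC trend removed, at a median of 0.22). Tnfrsf18, a costimulatory receptor gene of regulatory T cells, was called higher at 3.74 (3.37 to 4.10) and the inhibitory receptor gene Ctla4 lower at -2.71 (-4.99 to -1.15) on 340 and 3 counts. With the GC trend removed Tnfrsf18 was at 2.37, called higher, and Ctla4 at -1.39, not called. Nrp1 was at -0.13 (-0.42 to 0.14). Of 8 targets of Tbx21 and Eomes, 7 were tested, with 0 higher and 3 lower and a median of -0.55. All 3 called lower (Cxcr3, Gzmb and Prf1, the last named after its values were seen) lay below 1 TPM in replicate 2 and passed the filter through replicate 1. Their TPM could therefore only be lower in replicate 2, which does not fix the ratio under TMM, and their count is not read as a result. Cxcr3, a type 1 chemokine receptor gene, was at -4.06 (-9.37 to -1.57) on 290 and 1 counts, and the granzyme gene Gzmb was listed with 155 and 0 counts. Ccl5 at 0.30 (-0.05 to 0.63) and the interleukin 2 receptor gene Il2rb at 0.45 (0.19 to 0.71) were not called.

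Of 5 targets of Tox, 4 were tested, with 1 higher and 2 lower and a median of -0.85 (0 and 1 with the GC trend removed, at a median of -0.30). The checkpoint receptor gene Lag3 was called higher at 2.73 (2.30 to 3.15) and Havcr2 lower at -1.54 (-2.13 to -0.9997), with Entpd1 not called at -0.73 (-1.11 to -0.38). With the GC trend removed Lag3 was at -0.15 and Havcr2 at -0.45, and neither was called. All 4 targets of Runx3 were tested and 0 were called (1 higher with the GC trend removed), at a median of -0.05. Among them were Cd8a at -0.28 (-0.49 to -0.07) and the integrin gene Itgal at 0.17 (0.03 to 0.31). The filter limits the other lists likewise. No tested gene of any list lay below 1 TPM in replicate 1, while of the genes called lower 1 partner, 2 of the other T and NK cell factors, 1 target of Foxp3, 1 of Tox, 2 T cell markers and 3 NK cell markers lay below 1 TPM in replicate 2.

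**Figure D5:**
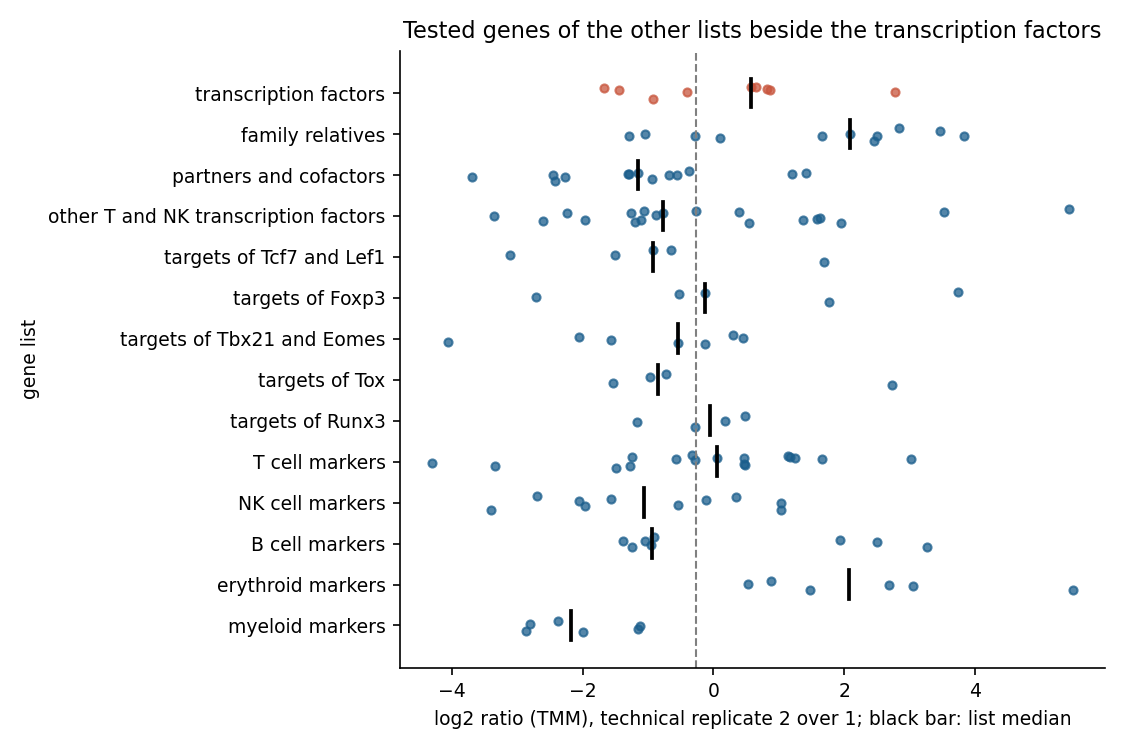
Log2 ratio of technical replicate 2 over 1 under TMM (x axis) of each tested gene of the lists (y axis), with the 9 transcription factor genes in red, black bars at list medians and a dashed line at the median of all tested genes. The transcription factors have a median of 0.58, the relatives 2.09, the partners -1.16, and erythroid and myeloid markers 2.08 and -2.18.

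Markers of the cells that hold these factors were present in both libraries, though not all. All 17 T cell markers reached 1 TPM in replicate 1 and 15 in replicate 2, and they summed to 1621 TPM and 422.6 TPM. Under TMM 5 were called higher and 5 lower (1 and 5 under every scaling, 3 and 5 with the GC trend removed), with a median of 0.06. Beside this and the other marker lists, 28.0% of all tested genes were called higher and 32.6% lower under TMM. The receptor constant genes went apart, with Trbc2 at 2587 and 328 counts and Trac, the alpha chain constant gene, at 1028 and 0. The adaptor gene Lat was called higher at 3.02 (2.85 to 3.19). All 10 NK cell markers reached 1 TPM in replicate 1 and 7 in replicate 2, with sums of 417.0 and 74.5 TPM, 2 called higher and 5 lower (0 and 4 under every scaling, 3 and 3 with the GC trend removed), and a median of -1.05, or -0.16 with the GC trend removed. The NK receptor gene Ncr1 had 553 and 3 counts, Klrd1 was at -1.97 (-2.73 to -1.30) and, not called, at -0.12 with the GC trend removed, Gzma at 1.03 (0.78 to 1.27), and Gzmb was at 0 in replicate 2. Markers of other spleen cells differed as well. Summed levels of the 6 erythroid markers were 36030 and 214207 TPM, with 5 called higher and 0 lower. For the 6 myeloid markers they were 3357 and 97.3 TPM, with 0 higher and 6 lower. For the 8 B cell markers they were 3693 and 1276 TPM, with 3 higher and 5 lower. The part of these differences in the ratios of the 9 genes was not tested.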

How the data were processed

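Per the file headers and a text beside them, reads were aligned to the mm10 transcriptome of GENCODE M4, 1 library per table. Aligner, quantifier and use of strand: not given in the sources used here. The authors deposited an expected count per gene and transcript, TPM, and per transcript a percent share of its gene's TPM (IsoPct). Per the file headers, the deposited tables also hold the other measures used, namely lengths, posterior SDs and bounds of a TPM interval whose level is not stated. TPM summed to 1000000 in each library.

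Gene identifiers were matched to symbols for 42462 of 43346 genes. Rows without an Ensembl identifier held 1.09e-05% and 2.1e-04% of the counts and were left out. Expected counts were rounded. The test took in the 12467 genes that had 50 counts over both libraries and averaged 1 TPM or more. Library sizes came from TMM in edgeR 4.0.16 (R 4.3.3). DESeq2 1.42.0 size factors, total counts, TPM ratios, filters, thresholds and removal of GC and length trends were alternatives. Intervals of the log2 ratios are Clopper-Pearson 95% intervals, exact given the summed count of the gene, and a call needs the whole interval beyond 1.5-fold. For a count of 0 the floor was 3 counts per library. Intervals and floors cover counting error only. edgeR's quasi-likelihood test could not be run with 1 library a side. GC content came from GENCODE M21 (GRCm38), weighted by TPM over matched transcripts (101510 of 103639), and was known for 99.76% of tested genes. Of the 35 transcripts of the 9 genes, 33 had the same length there and in the deposited tables, the exceptions being Foxp3-203 and Foxp3-204. Promoter sequences came from RefSeq (GRCm38.p6). Calls and intervals were tested on simulated data. Other steps used scipy 1.17.1, pandas 2.3.3 and numpy 2.4.6 in Python 3.11.15, and matplotlib 3.10.9 drew the figures.

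The 9 genes and all lists were chosen with earlier results of these data known. The text names every one of the 9, and of each other list the 2 tested genes of highest mean TPM and the called genes of highest and lowest ratio, not all of which are given, with exceptions stated.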

Additional observations from a re-analysis of the deposited data

Results flagged for a closer look

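Rows with a numeric identifier in place of an Ensembl gene identifier enter no comparison above. They summed to 8 counts in replicate 2, above the 3 counts that a count of 0 allows, and they are named here for that reason alone.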

How the results depend on the processing

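The directions of Tcf7, Foxp3 and Eomes (lower) and of Gata3 (higher) were the same under TMM, DESeq2 size factors, total counts, TPM ratios (also with pseudocounts of 1 and 0.1) and removal of the GC trend or of the GC and length trends. Not all of these were calls, as Gata3 was not called as a TPM ratio, at 0.34, and Tcf7 not under DESeq2, at -0.81. Foxp3 was not called under TMM, at -1.44, or DESeq2, at -1.32. The other 5 genes changed side, and for these changes the cause was not tested beyond the shift that each scaling makes. With total counts, and then as a TPM ratio, the log2 ratio was -0.69 and -1.86 for Bcl11b, -0.61 and -1.80 for Tbx21, -0.40 and -1.60 for Tox, and -0.44 and -1.67 for Runx3. With the GC trend removed and with the GC and length trends removed, it was 0.23 and 0.31 for Lef1, -1.98 and -1.83 for Tbx21, and -0.47 and -0.0896 for Runx3. With GC content as the plain mean over transcripts, an alternative chosen after seeing the data, it was 0.43 for Lef1, -1.54 for Bcl11b, -1.56 for Tbx21 and -1.67 for Runx3.

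The numbers of the 9 genes called higher and lower, 1 and 2 under TMM, were 2 and 1 with DESeq2 size factors, 1 and 4 with total counts, 0 and 8 as TPM ratios, 2 and 4 with the GC trend removed, 3 and 4 with the GC and length trends removed, and 2 and 6 with unweighted GC content. They were 0 and 1 when a gene needed 200 counts and a mean of 5 TPM, which fewer of the 9 passed, Gata3 and Eomes not among them. At 2-fold they were 1 and 0, and with a 99% interval 1 and 1. Shares over all tested genes were not taken for the stricter filter, the 2-fold threshold and the 99% interval, so these counts are not read as a result. Under every scaling the numbers were 1 and 1, against 11.8% and 30.5% of all tested genes. The median of 0.58 was -0.69 under total counts, -1.86 as a TPM ratio, -1.52 and -1.82 with pseudocounts of 1 and 0.1, -0.41 with the stricter filter, -0.47 with the GC trend removed, -0.0896 with both trends removed and -1.56 with unweighted GC content. Folds between pairs of the 9 genes and calls of the lists with the GC trend removed were also chosen after seeing the data. Genes at 1 TPM or more numbered 7 in both libraries, 7 without replicate 1 and 9 without replicate 2. No paired analysis was possible because the libraries form 1 group. Depth limits replicate 2, where Foxp3 rests on 7 counts and Eomes on 9.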
